A study of Arabidopsis thaliana with 12 samples.

Results

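Transcripts of seed cupins and oleosins, proteins of the protein and oil stores of the seed, were followed on 12 arrays of dark-grown Arabidopsis thaliana seedlings. The genes were chosen by locus, as 9 loci that a single-gene probe set of the array annotation had to name. That choice was made with earlier results of these data known. Shares over all probe sets are therefore given beside counts of these genes for scale only. Of these, 8 were named: the cupins PAP85 (AT3G22640), AT2G28490, AT4G36700, AT2G18540 and AT1G03890, and the oleosins AT2G25890, AT3G01570 and OLEO3 (AT5G51210). The ninth, AT5G55240, is ATPXG2 (a peroxygenase by its synonym) in the gene table and was not analysed here. The 8 genes are 8 of the 13286 genes that single-gene probe sets named, on arrays of 22746 probe sets. The files and the gene table give PAP85 and OLEO3 a name and the other 6 only a locus number, so the division of those 6 into 5 cupins with PAP85 and 3 oleosins with OLEO3 rests on general knowledge of the loci.

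Cupins are proteins built on a barrel-shaped fold, and the vicilin-like and 12S globulin-like members include seed storage proteins, which are packed into vacuoles as the embryo matures and broken down after germination. Oleosins are small proteins with a long hydrophobic hairpin that coat the oil bodies of seeds and keep them from fusing. Both classes are known for transcripts that accumulate late in seed maturation and decline as the seedling establishes.

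All plants were of the Columbia accession, etiolated, and grown from cold-treated seed. Wild type (Col-0), ein2-5 (here ein2) and ein5-1 (here ein5) were each sampled in hydrocarbon-free air and after 4 h of ethylene at 10 ppm, which made 6 groups of 2 arrays. EIN2 is a membrane protein that the ethylene response requires, and EIN5 is a 5' to 3' exoribonuclease, as the series title states. Each mutant was represented by 1 allele. The text of ein2 air replicate 1, like the series text, gives 3 days of growth in the dark at 24 °C, and the texts of the other 11 samples give 5 days at 25 °C. The age of ein2 air replicate 1 relative to the others therefore cannot be settled from the labels, and results on ein2 in air were computed with and without it. The labels do not say whether both samples of a group were grown separately. The p-values rest on the spread between samples of a group, pooled over the 6 groups and adjusted by a variance trend over all probe sets. That spread may be technical.

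Levels are scaled intensities, and they serve to compare arrays for 1 gene, never 1 gene with another. The deposited array medians ran from 922 to 1039. Replicate arrays correlated at 0.960 to 0.975 across probe sets, and the median log2 difference between replicates ran from 0.188 in ein2 air to 0.323 in wild type under ethylene. The extraction text speaks of mature leaves, whereas the other labels speak of seedlings. PORB, a protochlorophyllide oxidoreductase, was the only 1 of 2 genes listed for etiolated seedlings with a named probe set. It read 28046 to 72365 over the arrays, and this level was not used to tell seedlings from leaves. BAN, an anthocyanidin reductase of the seed coat, read 8.87 to 52.5 and was the only 1 of 10 testa and endosperm markers with a named probe set. The 5 markers of light-grown tissue had none, so that comparison was not made here. In such bulk samples, fewer cells of a type and less RNA per cell cannot be told apart.

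Of the 5 cupins, PAP85, AT2G28490 and AT4G36700 were higher in ein2 than in wild type, and AT2G18540 and AT1G03890 did not pass the test. PAP85, a vicilin-like storage globulin, read 193 and 438 in wild type in air and 362 and 392 in wild type under ethylene. In ein5 it read 1515 and 1714 in air and 1698 and 1369 under ethylene, and in ein2 it read 2018 and 2312 in air and 1571 and 1937 under ethylene. Each of the 8 mutant arrays lay above all 4 wild-type arrays, and the ranges of the 2 mutants overlapped. The order of the group means, from the lowest, was wild type in air, wild type under ethylene, ein5 under ethylene, ein5 in air, ein2 under ethylene and ein2 in air, and neighbours in this order overlapped except at 2 steps. These were the step from wild type to ein5, both under ethylene, which passed the test, and that from ein2 under ethylene to ein2 in air, which did not (adjusted p = 0.798).

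**Figure D1:**
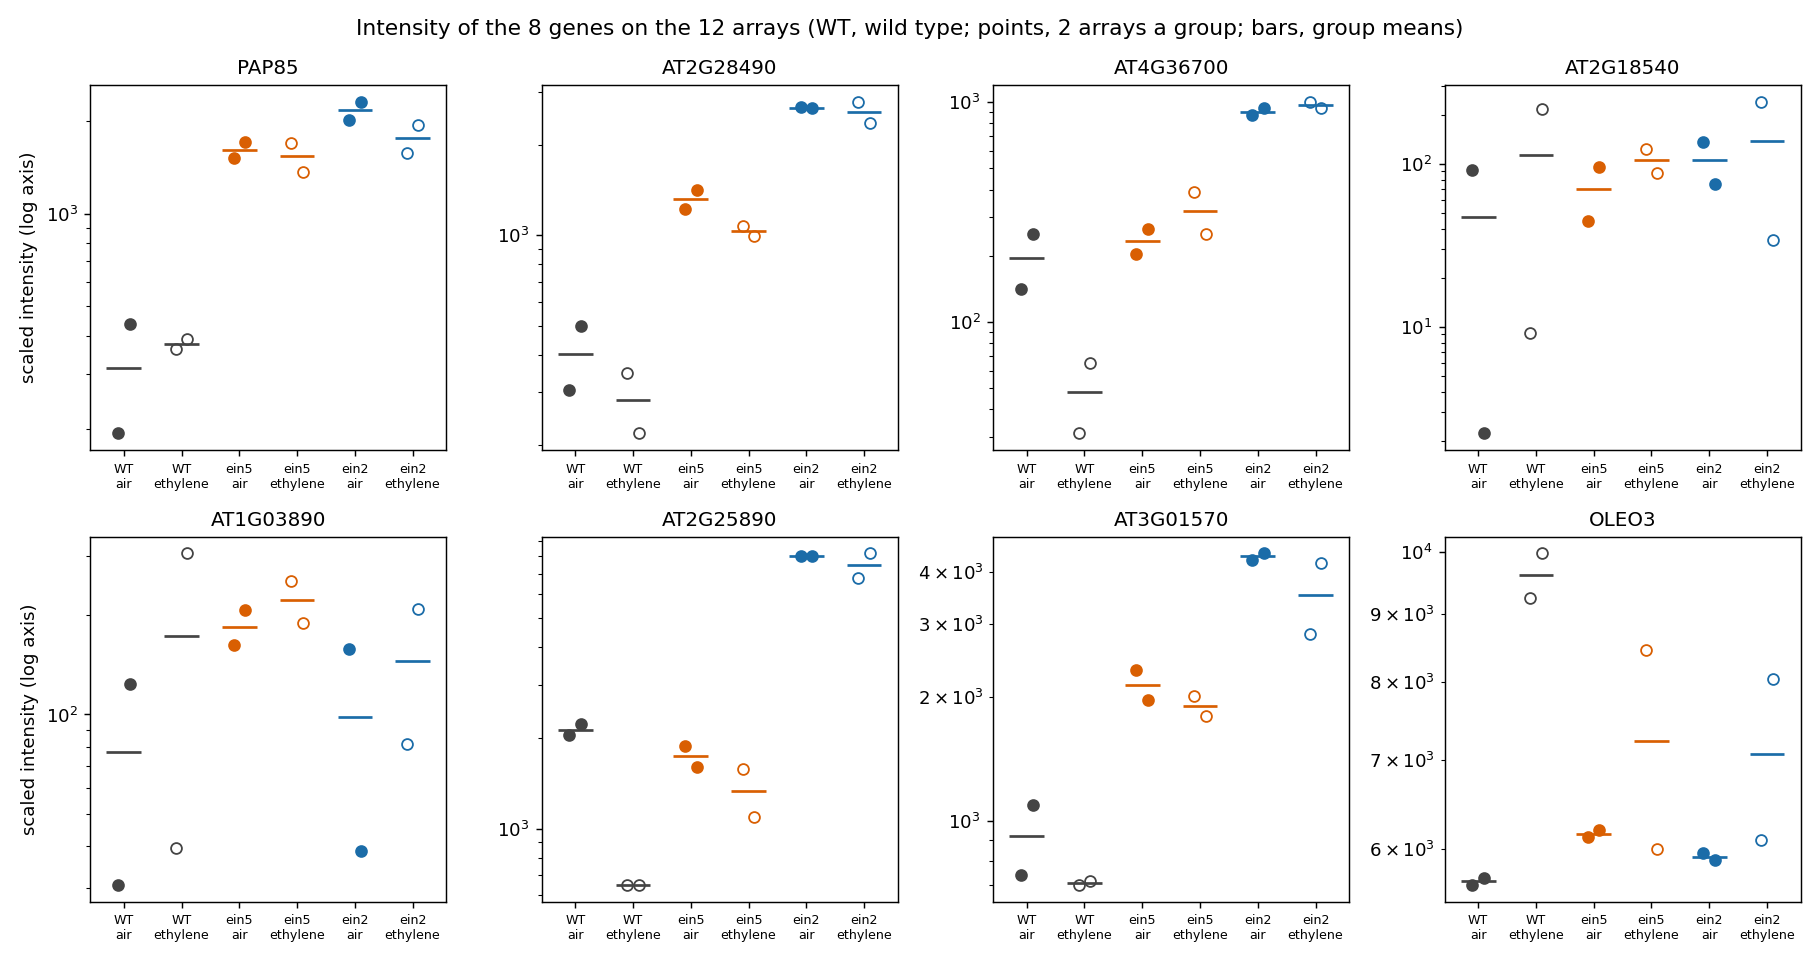
Scaled intensity (log axis, a separate range for each panel) of the 8 genes by group, with a point for each of the 2 arrays and a bar at the group mean; filled points are air and open points ethylene. PAP85, AT2G28490 and AT3G01570 are higher on every mutant array than on every wild-type array. AT2G25890 is highest in ein2, and OLEO3 is highest in wild type under ethylene.

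AT2G28490, a vicilin-like cupin, read 306 and 499.9 in wild type in air and 348 and 218 under ethylene. It read 1228 and 1419 in ein5 in air and 1078 and 995 under ethylene. In ein2 it read 2668 and 2662 in air and 2793 and 2363 under ethylene. The 3 genotypes formed 3 separate ranges, with ein5 between wild type and ein2 in both gases. Neighbouring groups of the same genotype differed by less than their spread except in ein5, where both air arrays lay above both ethylene arrays without a difference that passed the test.

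AT4G36700, also a vicilin-like cupin, was highest in ein2. It read 141 and 252 in wild type in air and 31.1 and 65.1 under ethylene. The ein5 arrays read 203 and 265 in air and 389 and 251 under ethylene, and the ein2 arrays read 869 and 942 in air and 1005 and 941 under ethylene. All 4 ein2 arrays lay above the 8 others, the 2 arrays of wild type under ethylene lay below the 10 others, and ein5 in air overlapped wild type in air.

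AT2G18540 and AT1G03890 were dim and varied widely between replicates. AT2G18540, a vicilin-like cupin, spanned 2.23 to 241 over the 12 arrays with a median of 89.6, and its 2 arrays of wild type in air read 92.0 and 2.23. AT1G03890, a cupin of the 12S cruciferin type, spanned 30.6 to 306 with a median of 159.5, and its 2 arrays of wild type under ethylene, 39.5 and 306, held nearly that whole range. In the comparisons of 2 groups that were tested, those of AT2G18540 always overlapped, and those of AT1G03890 overlapped in all but ein5 in air against the other 2 genotypes in air. Neither gene passed the test in any of the 11 comparisons.

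Among the oleosins, AT2G25890 and AT3G01570 were higher in ein2, whereas OLEO3 differed little between the 3 genotypes in air. AT2G25890 read 2047 and 2216 in wild type in air and 651 and 649 under ethylene. In ein5 it read 1885 and 1606 in air and 1576 and 1094 under ethylene, and in ein2 it read 8035 and 8050.1 in air and 6793 and 8192 under ethylene. The ein2 arrays lay far above all others. The order of the means below them was wild type in air, ein5 in air, ein5 under ethylene and wild type under ethylene, with no overlap between any of these neighbours, although the gaps around ein5 in air did not pass the test.

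AT3G01570 read 740.3 and 1096 in wild type in air and 700.2 and 718 under ethylene. It read 2318 and 1959 in ein5 in air and 2008 and 1797 under ethylene. In ein2 it read 4286 and 4444 in air and 2835 and 4213 under ethylene. As for AT2G28490, the genotypes formed 3 ranges that did not overlap, with ein5 in the middle, and within each genotype the air and ethylene arrays overlapped or differed without passing the test.

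OLEO3 had a different pattern. In air it read 5639.6 and 5712 in wild type, 6125 and 6199 in ein5 and 5958 and 5887 in ein2. Under ethylene it read 9251 and 9983 in wild type, 8453 and 6004 in ein5 and 6092 and 8040.1 in ein2. The genotypes did not overlap in air but lay within a narrow range. The 2 arrays of wild type under ethylene lay above all 10 others, and the 2 mutants overlapped each other under ethylene.

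For the tests, log2 values with an offset of 16 were compared by limma, and a call required an adjusted p (Benjamini-Hochberg over all probe sets) below 0.05. A change is a difference of log2 values ± its standard error, n = 2 arrays in each group, and the offset understates the changes of dim genes such as AT4G36700. Comparisons with the same wild-type arrays share those arrays and are not independent of each other.

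In air, 5 of the 8 genes rose in ein2 over wild type, where 1.24% of all probe sets were called higher. PAP85 was higher by 2.82 ± 0.28 (adjusted p = 7.97e-05), which is 7.06-fold on the offset scale. AT2G28490 was higher by 2.72 ± 0.25 (adjusted p = 3.69e-05) and AT4G36700 by 2.17 ± 0.40 (adjusted p = 0.00896). The oleosins AT3G01570 and AT2G25890 were higher by 2.26 ± 0.20 (adjusted p = 3.13e-05) and 1.91 ± 0.16 (adjusted p = 2.28e-05). OLEO3 differed by 0.06 ± 0.16 (adjusted p = 0.901), with a 95% interval from -0.27 to 0.39, so a rise of the size of the other oleosins lay outside the interval. The interval of AT2G18540 (-0.86 to 3.66) was too wide to place it with either set. That of AT1G03890 (-1.48 to 2.03) held both 0 and the rise of AT2G25890, but ended below the rises of the other called genes. AT1G03890 was dim, and the offset understates such changes. The median change of the 8 genes was 2.04, against 0.01 over all probe sets.

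Without ein2 air replicate 1, the array whose text gives the shorter growth, 4 of the 5 calls held. PAP85 was then higher by 2.92, AT2G28490 by 2.72, AT3G01570 by 2.28 and AT2G25890 by 1.91, with adjusted p from 0.00115 to 0.00223. AT4G36700 was higher by 2.23 with an adjusted p of 0.0755. It also missed the threshold without ein2 air replicate 2, without wild type air replicate 1 and without the variance trend, with adjusted p of up to 0.103.

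Under ethylene, the same 5 genes rose in ein2 over wild type, where 6.4% of all probe sets were called higher. AT4G36700 was higher by 4.00 ± 0.40 (adjusted p = 1.34e-05), AT2G25890 by 3.49 ± 0.16 (adjusted p = 1.36e-08) and AT2G28490 by 3.15 ± 0.25 (adjusted p = 1.57e-06). AT3G01570 was higher by 2.26 ± 0.20 (adjusted p = 5e-06) and PAP85 by 2.16 ± 0.28 (adjusted p = 0.000177). OLEO3 had a change of -0.46 ± 0.16 that did not pass (adjusted p = 0.0852), and it passed with the values as deposited and without either 1 of the ein5 ethylene arrays. The median of the 8 genes was 2.21, against 0.02 over all probe sets.

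**Figure D2:**
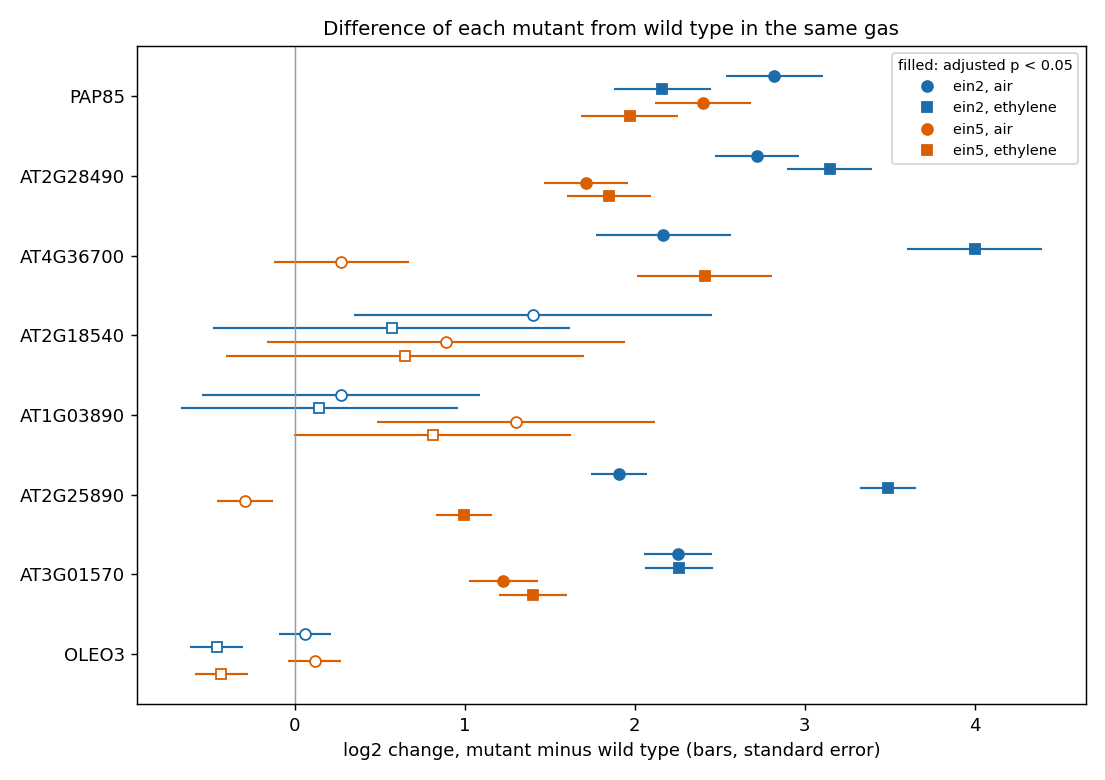
Log2 change of each gene in the mutants minus wild type, in air and under ethylene, with bars of 1 standard error and filled points for adjusted p under 0.05. PAP85, AT2G28490 and AT3G01570 are higher in both mutants in both gases, whereas AT4G36700 and AT2G25890 in ein5 are higher under ethylene only among the called values.

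In ein5 in air, 3 of the 8 genes rose over wild type, where 2.04% of all probe sets were called higher. PAP85 was higher by 2.40 ± 0.28 (adjusted p = 0.00104), AT2G28490 by 1.71 ± 0.25 (adjusted p = 0.00304) and AT3G01570 by 1.23 ± 0.20 (adjusted p = 0.0054). AT4G36700 differed by 0.28 ± 0.40 (adjusted p = 0.751; 95% interval -0.58 to 1.13), and AT2G25890 by -0.29 ± 0.16 (adjusted p = 0.337; 95% interval -0.64 to 0.06). All 3 calls were lost when the fit held only the groups compared or no variance trend, with adjusted p of up to 0.0818, and those of AT2G28490 and AT3G01570 were also lost without ein5 air replicate 2.

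Under ethylene, 5 of the 8 genes rose in ein5 over wild type, where 2.15% of all probe sets were called higher. AT4G36700 was higher by 2.41 ± 0.40 (adjusted p = 0.00336), PAP85 by 1.97 ± 0.28 (adjusted p = 0.00139) and AT2G28490 by 1.85 ± 0.25 (adjusted p = 0.000751). The oleosins AT3G01570 and AT2G25890 were higher by 1.40 ± 0.20 (adjusted p = 0.00136) and 1.00 ± 0.16 (adjusted p = 0.00327). AT2G25890 and AT4G36700 were not called when only the groups compared were fitted (adjusted p of up to 0.0994). The same held for AT2G25890 without the variance trend and for AT4G36700 without ein5 ethylene replicate 1.

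Direct comparison of the mutants placed 4 of the 8 genes lower in ein5 than in ein2 in air, where 1.95% of all probe sets were called lower. AT2G25890 was lower, at -2.20 ± 0.16 (adjusted p = 8.02e-06). AT4G36700 stood at -1.89 ± 0.40 (adjusted p = 0.0219), AT3G01570 at -1.03 ± 0.20 (adjusted p = 0.0152) and AT2G28490 at -1.0 ± 0.25 (adjusted p = 0.0435). PAP85 did not pass, at -0.42 ± 0.28 (adjusted p = 0.491; 95% interval -1.03 to 0.19). AT4G36700 and AT3G01570 lost the call without ein2 air replicate 1 and in other settings (adjusted p of up to 0.187), and AT2G28490 lost it in 12 of 21 alternatives.

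Under ethylene the same 4 genes were lower in ein5 than in ein2, where 7.37% of all probe sets were called lower. AT2G25890 was lower, at -2.49 ± 0.16 (adjusted p = 2.35e-06), followed by AT4G36700 at -1.59 ± 0.40 (adjusted p = 0.0217). AT2G28490 stood at -1.30 ± 0.25 (adjusted p = 0.00502) and AT3G01570 at -0.86 ± 0.20 (adjusted p = 0.0155). PAP85 differed by -0.19 ± 0.28 (adjusted p = 0.746; 95% interval -0.80 to 0.42). AT2G28490 lost the call without ein2 ethylene replicate 1 (adjusted p = 0.059), and AT4G36700 and AT3G01570 lost it in several settings, among them when either ein5 ethylene array was left out (adjusted p of up to 0.196).

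In wild type, ethylene left 5 of the 8 genes without a call, lowered 2 and raised 1, where 6.28% of all probe sets were called lower and 3.82% higher. The oleosin AT2G25890 fell by 1.69 ± 0.16 on the log2 scale (adjusted p = 1.43e-05), from 2131 ± 120 (SD, n = 2) to 649.9 ± 1.64. The cupin AT4G36700 fell by 1.73 ± 0.40 (adjusted p = 0.012), from 196 ± 78.7 to 48.1 ± 24.0. OLEO3 rose by 0.76 ± 0.16 (adjusted p = 0.00563), from 5676 ± 51.5 to 9617 ± 518. The remaining oleosin AT3G01570 had a change of -0.34 ± 0.20 (adjusted p = 0.369), and PAP85 and AT2G28490 had changes of 0.35 ± 0.28 (adjusted p = 0.548) and -0.48 ± 0.25 (adjusted p = 0.284). PORB, from the etiolated seedling list, was higher under ethylene by 0.78 ± 0.22 in wild type (adjusted p = 0.0408), and its part in these changes was not tested. That call held in 7 of 21 alternatives (adjusted p of up to 0.314), and the value was 0.36 without wild type ethylene replicate 2 and 1.2 without replicate 1. The call of AT4G36700 was lost when only the groups compared were fitted and without wild type air replicate 2 or ethylene replicate 1 (adjusted p of up to 0.203). That of OLEO3 was lost without the variance trend (adjusted p = 0.062). PAP85 was called higher, by 0.91, without wild type air replicate 2.

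In the mutants the gas changed none of the 8 genes past the threshold by limma. In ein2, 0 were called and 0 had an unadjusted p under 0.05, where 0.514% of all probe sets were called in either direction. In ein5, 0 were called, where the share of all probe sets was 1.62%, and 1 had an unadjusted p under 0.05. That gene was AT2G25890, at -0.40 ± 0.16 (adjusted p = 0.318). The corresponding value of AT2G25890 in ein2 was -0.11 ± 0.16 (adjusted p = 0.892). With so few of all probe sets called in either mutant, 0 of 8 does not set these genes apart.

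**Figure D3:**
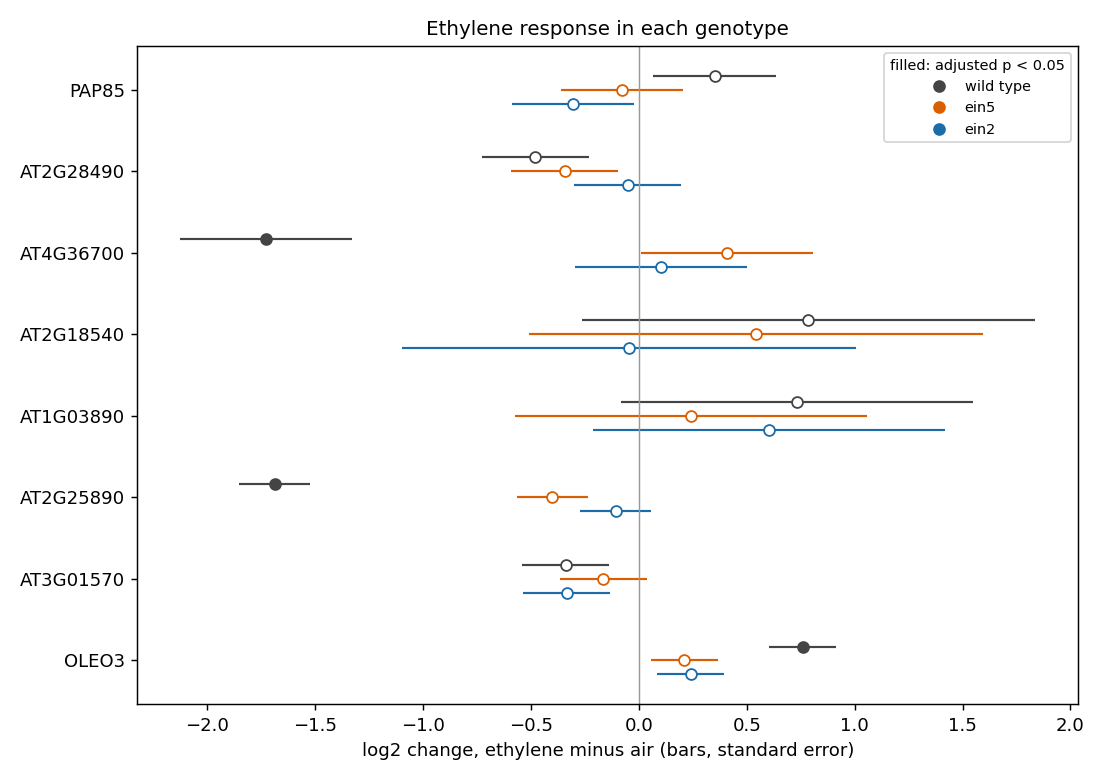
Log2 change under ethylene against air for each gene in wild type, ein5 and ein2, with bars of 1 standard error and filled points for adjusted p under 0.05. Filled points appear in wild type, where AT4G36700 and AT2G25890 fell and OLEO3 rose, and in neither mutant. Over all probe sets, 1.62% were called in ein5 and 0.514% in ein2.

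Whether the response itself differed between genotypes was tested as a difference of differences, and AT2G25890 was the only gene of the 8 to pass. Its response in ein2 exceeded that in wild type by 1.58 ± 0.23 (adjusted p = 0.00176), where 2.8% of all probe sets were called higher. The response in ein5 exceeded that in wild type by 1.29 ± 0.23 (adjusted p = 0.025), where 0.431% of all probe sets were called higher. The ein5 difference was not called in 8 of 21 alternatives, among them the fit without ein2 air replicate 1, with adjusted p of up to 0.231. For AT4G36700 the differences were 1.83 ± 0.56 in ein2 (adjusted p = 0.0939) and 2.13 ± 0.56 in ein5 (adjusted p = 0.133). The ein2 difference of this gene was called without wild type ethylene replicate 2, at 2.22, as was that of PAP85 without wild type air replicate 2, at -1.22. OLEO3 gave -0.52 ± 0.22 (adjusted p = 0.243) and -0.55 ± 0.22 (adjusted p = 0.364), so its rise in wild type was not shown to differ from its response in either mutant.

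OLEO3 did not follow the mean of the other 7 genes. Across the 12 arrays, the Pearson correlation of a gene's log2 values with the mean of the other 7 was 0.936 for AT3G01570, 0.907 for AT2G28490, 0.890 for AT4G36700, 0.866 for PAP85 and 0.706 for AT2G25890. It was 0.291 for AT2G18540, 0.163 for AT1G03890 and -0.32 for OLEO3. AT2G18540 and AT1G03890 were dim, and their replicates in wild type under ethylene differed by 3.21 and 2.54 on the log2 scale. Their low correlations therefore do not place them with or apart from the other genes. These values describe 12 arrays of 6 groups, whose points share genotypes.

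The 8 named genes whose profiles most resembled the mean of the group had correlations of 0.933 to 0.970 with it over the same 12 arrays. They were AT3G56350, M17 (AT2G41260), AT1G54870, AT3G19920, AT2G41730, AT1G65090, AT5G14450 and AT3G54940. M17 averaged 246 ± 53.1 in wild type in air, 981 ± 89.5 in ein5 in air and 3966 ± 80.3 in ein2 in air (SD, n = 2). AT3G54940 averaged 1477 ± 347 in wild type in air and 8047 ± 320 in ein2 in air, and 628 ± 208 and 8156 ± 376 in the same genotypes under ethylene. Both had their highest levels in ein2, a trait that the choice by likeness over these same arrays favoured. Among the 8, AT2G41730 differed less, at 1053 ± 42.2 in wild type in air and 1794 ± 63.6 in ein2 in air.

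**Figure D4:**
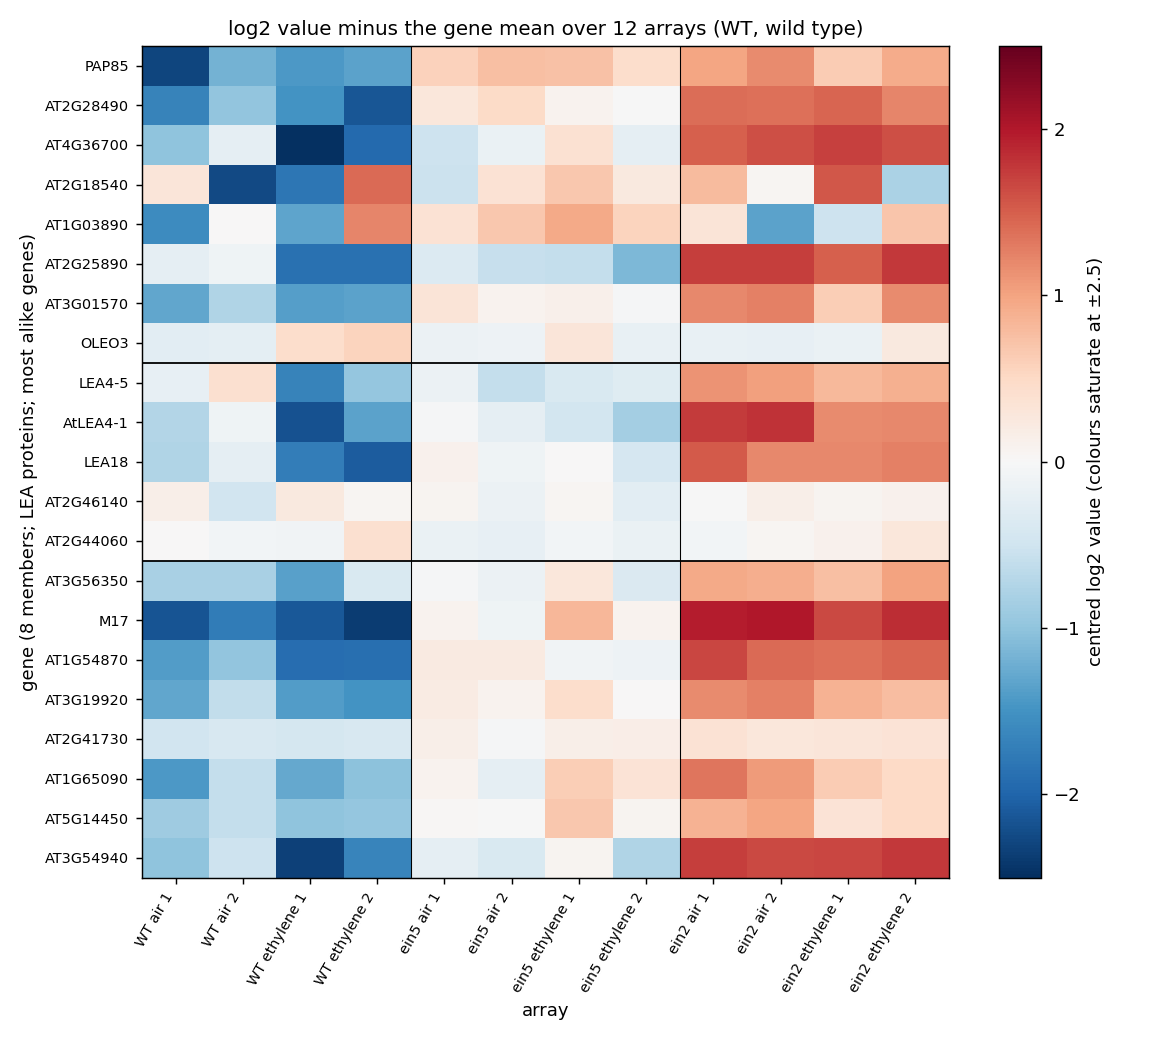
Log2 value minus the gene's mean over the 12 arrays (colour, limited at 2.5 in either direction) for the 8 genes, 5 late embryogenesis abundant genes and the 8 most alike genes, by array. The ein2 columns are red for most rows and the wild-type columns blue. The most alike genes were chosen by their likeness to the mean of the 8 genes over these arrays. The rows of OLEO3, AT2G46140, AT2G44060 and, among the most alike genes, AT2G41730 are pale throughout.

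Genes of seed stores, the 8 genes among them, were read from lists of loci, and many of those loci had no named probe set. The 2S albumins had 0 of 5, the 12S cruciferins 1 of 4 (AT1G03890), the steroleosins 0 of 7, genes of storage oil synthesis 0 of 7 and the abscisic acid genes 0 of 13. Of 6 loci listed as vicilin-like cupins 6 were measured. In ein2 against wild type 3 were higher in air and 4 under ethylene, where 1.24% and 6.4% of all probe sets were called higher. The 3 in air were PAP85, AT2G28490 and AT4G36700. They belong to the 8 genes, as does AT2G18540, so their calls are counted here again. AT2G28680 was not called, at 0.83 ± 0.90 in air (adjusted p = 0.725) and -0.58 ± 0.90 under ethylene (adjusted p = 0.781). The fourth under ethylene was AT1G07750, which stood at -0.19 in air (adjusted p = 0.517) and was higher by 0.92 ± 0.13 under ethylene (adjusted p = 0.000285). The gene table gives AT1G07750 and AT2G28680 only a locus number, so their class as vicilin-like was not checked. AT1G07750 also responded to the gas. It fell in wild type under ethylene by 0.98 ± 0.13 (adjusted p = 0.000172), from 12883 ± 413 to 6595 ± 1248 (SD, n = 2). Of the oleosins 4 of 8 were measured, and AT3G18570 was the only 1 outside the genes chosen by locus. The calls of AT2G25890 and AT3G01570 in ein2 against wild type are those given above. AT3G18570 did not pass, at 1.33 ± 0.78 in air (adjusted p = 0.442) and 2.2 ± 0.78 under ethylene (adjusted p = 0.098).

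Of the oil body and lipid droplet genes other than oleosins, 2 were called in ein2 against wild type. The 2 measured caleosins, calcium-binding oil body proteins, were not called in that comparison, and the brighter one, AT1G23240, stood at 0.28 ± 0.53 in air (adjusted p = 0.864). Of 6 measured genes for other lipid droplet proteins, limma called 0 in ein2 against wild type in air, where 3 had an unadjusted p under 0.05, and 2 were higher in ein2 under ethylene, against 1.24% and 6.4% of all probe sets. The called genes were AT1G67360, higher by 0.46 ± 0.13 (adjusted p = 0.0351) and AT3G05500, higher by 0.49 ± 0.13 (adjusted p = 0.0309). Both of these calls were lost in several settings, with adjusted p of up to 0.196. AT5G16460 of this list stood at 1.38 ± 0.61 in air (adjusted p = 0.277) and 1.80 ± 0.61 under ethylene (adjusted p = 0.0826), and in air it was lower in ein5 than in ein2, at -2.66 ± 0.61 (adjusted p = 0.0309), a call lost in 5 of 20 alternatives. The medians of the 6 in ein2 against wild type were 0.22 in air and 0.29 under ethylene, against 0.01 and 0.02 over all probe sets. Of 4 measured genes of storage oil breakdown, limma called 0 in ein2 against wild type in either gas, and 0 had an unadjusted p under 0.05. Of all 22746 probe sets, 616 were called in air and 2246 under ethylene in either direction, so 0 of 4 does not set these genes apart. ICL, the isocitrate lyase of the glyoxylate cycle that turns seed oil toward sugar, read 54614 to 113813 and differed by 0.22 ± 0.27 in air (adjusted p = 0.764).

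**Figure D5:**
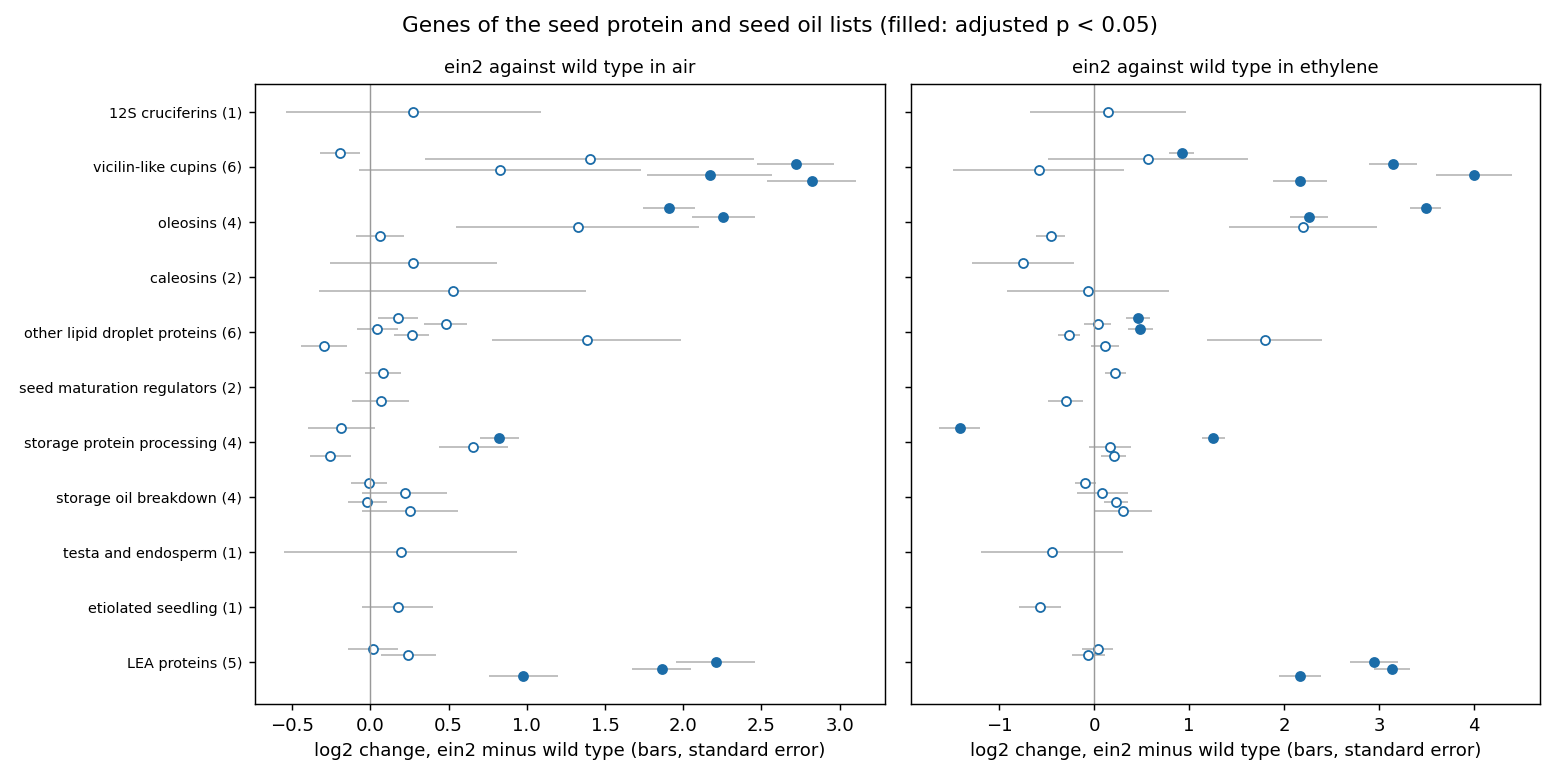
Log2 change in ein2 minus wild type, in air and under ethylene, for each measured gene of the lists (the number measured in parentheses), with bars of 1 standard error and filled points for adjusted p under 0.05. Filled points lie among the vicilin-like cupins, oleosins, LEA proteins and storage protein processing genes in both gases, and also among other lipid droplet proteins under ethylene. The cruciferin, vicilin-like cupin and oleosin lists include the 8 genes.

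Of 4 measured processing enzymes of storage proteins, 1 was higher in ein2 than in wild type in air, and 1 was higher and 1 lower under ethylene. Over all probe sets, 1.24% were called higher in air. Under ethylene 6.4% were called higher, and 790 of 22746 were called lower. BETA-VPE, a vacuolar processing enzyme that cleaves seed storage globulins, averaged 3914 ± 191 in wild type in air and 6968 ± 848 in ein2 in air (SD, n = 2), a rise of 0.83 ± 0.12 (adjusted p = 0.00232) that missed the threshold without the variance trend (0.0551) or without ein2 air replicate 2 (0.0507). Under ethylene it was higher in ein2 by 1.26 ± 0.12 (adjusted p = 1.14e-05). ALPHA-VPE, its vegetative relative, did not pass in air (-0.19, adjusted p = 0.744) and was lower in ein2 under ethylene, at -1.42 ± 0.22 (adjusted p = 0.000589). In wild type, ethylene raised 1 of the 4 and lowered 2. ALPHA-VPE rose by 1.29 ± 0.22 (adjusted p = 0.00128), BETA-VPE fell by 0.67 ± 0.12 (adjusted p = 0.00263), and GAMMA-VPE fell by 0.44 ± 0.13 (adjusted p = 0.0433), a call that held in 7 of 21 alternatives. Of 13 maturation regulators 2 were measured, and in ein2 against wild type limma called 0 in either gas, with 0 at an unadjusted p under 0.05. With 616 (air) and 2246 (ethylene) of all 22746 probe sets called in either direction, 0 of these 2 regulators does not set them apart. The brighter, BZIP53, a transcription factor of seed maturation genes, stood at 0.08 ± 0.11 in air in that comparison (adjusted p = 0.792). It was lower in ein5 than in wild type in air, at -0.43 ± 0.11 (adjusted p = 0.0421), and lower in ein5 than in ein2 in air, at -0.51 ± 0.11 (adjusted p = 0.0283), and under ethylene, at -0.38 ± 0.11 (adjusted p = 0.0474). These 3 calls held in 7, 12 and 9 of 21 alternatives.

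Late embryogenesis abundant (LEA) proteins are hydrophilic proteins that accumulate with the seed stores and are linked to desiccation tolerance. Of 5 genes with this word among their synonyms, 3 were higher in ein2 than in wild type in both gases, where 1.24% (air) and 6.4% (ethylene) of all probe sets were called higher. AtLEA4-1 was higher by 2.21 ± 0.25 in air (adjusted p = 0.000226) and 2.95 ± 0.25 under ethylene (adjusted p = 3.4e-06). LEA18 was higher by 1.86 ± 0.19 in air (adjusted p = 8.13e-05) and 3.13 ± 0.19 under ethylene (adjusted p = 1.35e-07). LEA4-5 was higher by 0.98 ± 0.22 in air (adjusted p = 0.0308) and 2.16 ± 0.22 under ethylene (adjusted p = 1.79e-05), and its call in air was lost without ein2 air replicate 1 (adjusted p = 0.19) and in 6 other settings. The other 2 genes were not called in that comparison in either gas. In wild type, ethylene lowered 3 of the 5, where 6.28% of all probe sets were called lower. LEA4-5, AtLEA4-1 and LEA18 stood at -1.41, -1.33 and -1.41 (adjusted p of up to 0.0033). The measured testa and endosperm marker BAN stood at 0.19 in ein2 against wild type in air (adjusted p = 0.941). PORB, from the etiolated seedling list, stood at 0.17 in that comparison (adjusted p = 0.774).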

How the data were processed

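Poly(A) RNA levels were measured on Affymetrix ATH1 arrays. The deposited table holds 1 linear intensity per probe set and array, and per the series text in the labels the authors quantified scans with GeneChip Suite 3.2 and managed values in GeneSpring 4.2, dividing each array by the median of its values above 10. The deposited intensities do not show that division: their mean after trimming both ends was 2480.3 to 2487.2 on every array, and no source used here describes that scaling. The division was therefore applied to each array here (factors 0.949 to 1.07), an offset of 16 was added and log2 taken. Between 3.86% and 6.16% of an array's values lay at or under the offset, and the number of arrays limits precision. Genes came from the array annotation, which gave 13513 probe sets 1 gene, 503 several and 8730 none listed; 13436 matched the TAIR10.1 gene table.

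Group means were fitted to all 12 arrays with limma 3.58.1 in R 4.3.3 (6 residual and 7.89 prior degrees of freedom, variance trend), two-sided, with Benjamini-Hochberg adjustment over 22746 probe sets in each of 11 comparisons. The code was tested on simulated data. An exact test of 2 arrays against 2 cannot reach 0.05. EIN2 and EIN5 were not named by a single-gene probe set, so the genotype labels were not checked on these genes. The genes and lists were chosen with earlier results of these data known. All members were named; of each list, at most 4 genes called in ein2 against wild type, by adjusted p, and otherwise its brightest gene; and the 8 genes most correlated with the members' mean. AT2G28680, AT3G18570, AT5G16460, GAMMA-VPE, AT2G46140 and AT2G44060 were named after their values were seen. Alternatives changed the scaling, offset, filter, variance model, arrays and replicate block.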

Additional observations from a re-analysis of the deposited data

Results flagged for a closer look

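The response of the oleosin AT2G25890 to ethylene differed between genotypes by a test of the difference itself. The response in ein5 exceeded that in wild type by 1.29 on the log2 scale, and the response in ein2 exceeded it by 1.58. Both differences share the wild-type arrays, in which the level was 2131 in air and 650 under ethylene. The 2 replicate arrays of wild type under ethylene read 651 and 649, and those of wild type in air 2047 and 2216, and the ein5 arrays under ethylene read 1576 and 1094, which is 0.52 apart on the log2 scale. The ein5 difference was not called in 8 of 21 alternatives. No replicate outlier could be looked for in groups of 2 arrays.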

How the results depend on the processing

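Each of the 11 comparisons was repeated under 21 alternatives. Of the 31 calls of a gene in a comparison, 16 held in every alternative, among them PAP85, AT2G28490, AT3G01570 and AT2G25890 in ein2 against wild type in both gases; 15 were lost in some, and 4 of 57 values without a call gained one. No called value changed sign. Without the variance trend the number of the 8 genes called went from 3 to 0 for ein5 against wild type in air, from 4 to 1 for ein5 against ein2 in air, from 4 to 2 for the same under ethylene and from 1 to 0 for the response of ein5 minus wild type. With only the groups compared in the fit, it went from 3 to 0 for ein5 against wild type in air, from 5 to 3 for ein5 against wild type under ethylene and from 1 to 0 for the response of ein5, which was also 0 with array weights. The causes were not tested.

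With each array left out in turn, the number called was 2 to 3 for ethylene in wild type and 0 to 0 in each mutant. It was 4 to 5 for ein2 against wild type in air and 5 to 6 under ethylene, 1 to 3 and 4 to 5 for ein5 against wild type in air and under ethylene, and 1 to 4 and 2 to 4 for ein5 against ein2 in air and under ethylene. The response difference gave 0 to 1 for ein5 and 1 to 2 for ein2. The lone array left in a group is assumed to vary like the other groups. A filter on dim probe sets (mean under 200) left AT2G18540 and AT1G03890 without a value.

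The correlation of deviations between same-numbered arrays lay between -0.0437 and 0.0734 over 15 pairs of groups. No deviation shared by same-numbered arrays was thus seen over all probe sets. These values cannot show whether a few genes share one, and the labels state no pairing. With replicate number as a block, ein5 against ein2 in air had 3 calls in place of 4, and the other 10 comparisons kept their counts.

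Counts over all probe sets moved more. Without the variance trend they went from 2298 to 1323 (ethylene in wild type), from 369 to 50 (in ein5), from 117 to 34 (in ein2), from 616 to 123 and 2246 to 1438 (ein2 against wild type in air and under ethylene), from 1320 to 18 and 1156 to 317 (ein5 against wild type), from 722 to 124 and 2318 to 819 (ein5 against ein2) and from 121 to 20 and 854 to 243 (response of ein5 and ein2). With only the groups compared, they were 813 for ethylene in wild type, 458 in ein2, 265 and 1267 for ein2 and 5 and 254 for ein5 against wild type, and 26 and 536 for the responses. With array weights they were 1309, 867 and 292 for ethylene in wild type, ein5 and ein2, 686 for ein5 against wild type under ethylene, and 1681 and 3689 for ein5 against ein2. Without ein5 air replicate 2, ein5 against wild type in air had 46 calls, and without ein2 air replicate 1, ein2 against wild type in air had 160

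Scaling moved the share of calls that were higher. For ein5 against wild type it was 35.1% in air and 42.3% under ethylene as scaled here, 53.2% and 58.7% as deposited, and 50.03% and 54.3% after quantile normalization. For ein5 against ein2 it was 38.5% and 27.7% as scaled here, 53.7% and 56.6% as deposited, and 48.0% and 46.7% after quantile normalization. For the response of ein2 it was 74.7%, 63.6% and 65.2%. The median change of ein5 against ein2 under ethylene over all probe sets was -0.06 as scaled here and 0.08 as deposited.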
